A study of Homo sapiens with 3 samples.

Results

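Expression of 8 genes that define the luminal, hormone-responsive state of breast epithelium was followed through ribociclib-treated CAMA-1 spheroids: the hormone receptor genes ESR1 and PGR, and the transcription factor genes GATA3, FOXA1, SPDEF, TFAP2A, TFAP2B and TFAP2C. The genes were chosen by symbol, with earlier results of these data known. Each symbol named 1 row of the count tables, so that all 8 were found among 22499 genes with a symbol. CAMA-1, a long-cultured human breast cancer line, is of the luminal type and carries the estrogen receptor. Spheroids were started from 2000 cells, either all drug-sensitive cells that carried the yellow fluorescent transgene Venus, all resistant cells that carried the red fluorescent transgene mCherry, or 50% of each. All 3 cultures received 1 µM ribociclib, an inhibitor of the kinases CDK4 and CDK6, and were harvested on day 11, so no untreated culture enters the comparisons. The resistant lineage had been selected by months of growth in ribociclib, and each lineage is 1 line. Cells were thawed from frozen stocks of the spheroids and read with 10X Genomics 3′ chemistry, in which a unique molecular identifier (UMI) marks each captured RNA molecule.

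The annotation that the authors deposited places each kept cell in 1 of 4 populations, which held 3329 sensitive cells in monoculture and 2059 in coculture, and 6292 resistant cells in coculture and 7557 in monoculture. Both coculture populations came from the same library. There was 1 library for each condition, so conditions have no replicates, no test across samples was made, and every interval below is a 95% interval for counting error alone. Levels are UMIs of a gene per 1000000 UMIs of the population (CPM), and differences are log2 ratios of CPM with 1 CPM added. These units count molecules without scaling by gene length, so each gene is compared with itself across populations.

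The populations differed in depth, from a median of 27622 UMIs per cell in sensitive monoculture to 35443 in resistant monoculture, in the share of UMIs from mitochondrial genes, from 15.9% in resistant coculture to 20.3% in sensitive monoculture, and in the share of cells called G1, which was 89.0% in sensitive monoculture and 49.7% to 55.3% in the others. The part of these differences in the results was not tested, beyond the values given within a phase and at a fixed depth. Of 8 luminal epithelial markers, all were above 1 CPM in every population, with a summed level of 8169 to 10125 CPM and KRT18 or KRT19, keratins of simple epithelium, as the highest. Basal and myoepithelial markers summed to 1.59 to 5.91 CPM, mesenchymal and stromal markers to 4.04 to 5.52 CPM and endothelial and blood cell markers to 0.727 to 1.38 CPM. The highest of these in sensitive monoculture were KRT14, at 3.59 CPM, COL1A1, at 3.18 CPM, and CD68, at 0.364 CPM. Of the cell barcodes kept in the annotation, 7 to 17 occurred in both of any pair of libraries.

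The estrogen receptor encoded by ESR1 is a transcription factor that binds DNA when estrogen occupies it. FOXA1 is a pioneer factor that opens chromatin at many of its sites, and GATA3 and the AP-2 factors, the products of the TFAP2 genes, bind alongside them in luminal cells. PGR encodes the progesterone receptor, a classical estrogen-induced gene whose product is read in the clinic as a sign of an active estrogen receptor, and SPDEF encodes an ETS-family factor of luminal and secretory epithelium.

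Promoter sequences were read from RefSeq (GRCh38.p14), which gave 20 windows for 7 of the 8 genes, each from 250 bases before to 50 bases after a transcription start. TFAP2C had no window in the table. The 250 bases before the start are shown for PGR, which differed most between cocultured and monocultured sensitive cells, and for TFAP2A, GATA3 and FOXA1, which differed between cultures in opposite directions in the lineages. For each gene the window with the most motif matches is shown, and the first of them where windows tied, as for PGR and GATA3. This is 1 of 3 windows for PGR, 1 of 2 for TFAP2A, 1 of 6 for GATA3 and the single one for FOXA1. Capitals mark the estrogen receptor core site, GGTCA or its complement TGACC, and the AP-2 motif GCCNNNGGC. The windows lie at chr11:101129078-101129327 (minus strand), chr6:10419660-10419909 (minus strand), chr10:8045083-8045332 (plus strand) and chr14:37595250-37595499 (minus strand) in that order.
PGR: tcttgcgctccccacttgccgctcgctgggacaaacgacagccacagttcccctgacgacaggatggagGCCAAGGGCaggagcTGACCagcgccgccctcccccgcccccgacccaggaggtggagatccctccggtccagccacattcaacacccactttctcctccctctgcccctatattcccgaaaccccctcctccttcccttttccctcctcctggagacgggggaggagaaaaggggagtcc
TFAP2A: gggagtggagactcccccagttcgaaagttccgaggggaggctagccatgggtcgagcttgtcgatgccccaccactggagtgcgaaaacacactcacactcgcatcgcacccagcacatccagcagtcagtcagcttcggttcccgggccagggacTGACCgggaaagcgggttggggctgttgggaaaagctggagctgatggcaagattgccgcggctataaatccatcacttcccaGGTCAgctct
GATA3: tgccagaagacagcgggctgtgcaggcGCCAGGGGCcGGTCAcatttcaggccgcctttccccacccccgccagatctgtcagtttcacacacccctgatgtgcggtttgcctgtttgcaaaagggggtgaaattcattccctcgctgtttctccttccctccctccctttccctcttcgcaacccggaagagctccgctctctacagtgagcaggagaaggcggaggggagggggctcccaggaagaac
FOXA1: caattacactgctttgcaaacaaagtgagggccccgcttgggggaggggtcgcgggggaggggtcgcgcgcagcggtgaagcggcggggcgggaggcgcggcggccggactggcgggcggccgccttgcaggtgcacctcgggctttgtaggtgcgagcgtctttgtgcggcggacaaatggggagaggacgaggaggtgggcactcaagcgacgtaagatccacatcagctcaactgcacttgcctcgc

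In the PGR sequence an AP-2 motif starts at base 70 and a receptor core site at base 85, and in the GATA3 sequence they start at bases 28 and 38. The TFAP2A sequence holds core sites at bases 158 and 241 and no AP-2 motif, while the FOXA1 sequence holds neither. Over the full windows and on both strands, the core site occurred in 7 of the 20 windows, against 37.4% of all 35116 promoter windows, and the AP-2 motif in 5, against 23.2%. The full estrogen response element, a pair of facing core sites with a gap of 3 bases, the forkhead motif TGTTTAC or GTAAACA and the GATA motif AGATAAG or CTTATCT were each in 0 of the 20 windows, against 0.0570%, 3.42% and 2.68% of all windows. A core site for steroid receptors other than the estrogen receptor, TGTTCT or AGAACA, was in 1 of the 20 windows, of ESR1, against 14.8% of all. Windows of 1 gene can overlap, and these matches describe letters, not binding.

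Levels of the members by population are plotted first.

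**Figure D1:**
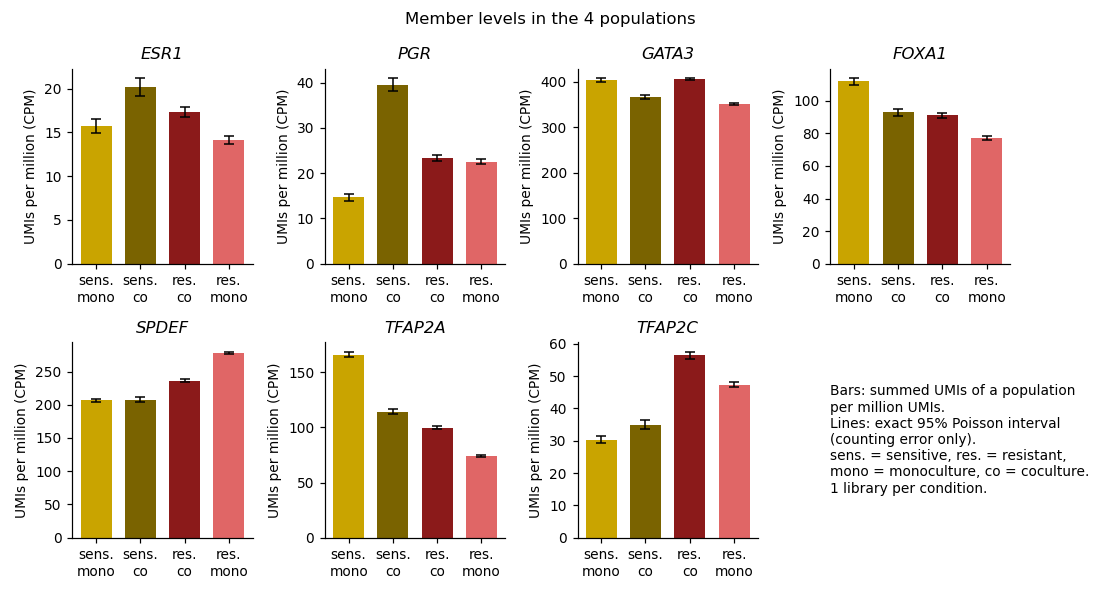
CPM of 7 members (vertical axes, from 0) in the 4 populations, with exact 95% Poisson intervals as lines; TFAP2B, with 1 UMI in all, is left out. PGR stands highest in sensitive coculture at 39.54 CPM, and TFAP2A is highest in sensitive monoculture at 166.1 CPM and lowest in resistant monoculture at 73.75 CPM, with both coculture populations between.

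ESR1 (ENSG00000091831, GRCh37 chromosome 6 from 151977826 to 152450754, plus strand), the receptor itself, was higher in coculture in both lineages when all cells of a population were summed. Its level was 15.70 CPM (14.92 to 16.51) in sensitive monoculture, 20.17 CPM (19.14 to 21.24) in sensitive coculture, 17.29 CPM (16.72 to 17.88) in resistant coculture and 14.18 CPM (13.73 to 14.63) in resistant monoculture. Coculture over monoculture gave a ratio of 1.28 (1.19 to 1.38) in sensitive cells and 1.22 (1.16 to 1.28) in resistant cells. The intervals of the 4 populations did not overlap, and the cocultured sensitive cells stood highest. Between the monocultures the resistant cells were lower by a ratio of 0.903 (0.851 to 0.959), and within the coculture library by 0.857 (0.806 to 0.912). The difference between the monocultures was small enough that TMM scaling took its log2 ratio from -0.14 to -0.03.

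PGR (ENSG00000082175, chromosome 11 from 100900355 to 101000544, minus strand), the receptor gene that estrogen induces, separated the populations in another order. Monocultured sensitive cells had 14.65 CPM (13.89 to 15.43), cocultured sensitive cells 39.54 CPM (38.09 to 41.03), cocultured resistant cells 23.31 CPM (22.65 to 23.99) and monocultured resistant cells 22.50 CPM (21.93 to 23.07). The sensitive lineage thus held both the lowest and the highest level, and the counting intervals of the resistant populations overlapped. In sensitive cells the ratio of coculture over monoculture was 2.70 (2.53 to 2.88), a log2 ratio of 1.37, and only 0.714% of the 12326 genes with at least 50 UMIs had a larger absolute log2 ratio there. In resistant cells the same ratio was 1.04 (0.997 to 1.08), which counting error does not set apart from 1. The order of the lineages therefore turned: resistant over sensitive was 1.54 (1.45 to 1.63) between the monocultures and 0.590 (0.563 to 0.618) within the coculture library. A correction for an assumed 10% of UMIs from the other lineage gave a sensitive log2 ratio of 1.44. That share was set alike for both lineages and was not estimated from the data. The same correction took the resistant log2 ratio from 0.05 to -0.08.

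GATA3 (ENSG00000107485, chromosome 10 from 8087341 to 8117161, plus strand), a zinc finger factor of luminal differentiation, varied little. It had 403.7 CPM (399.7 to 407.7) in sensitive monoculture, 366.4 CPM (362.0 to 370.9) in sensitive coculture, 405.9 CPM (403.1 to 408.7) in resistant coculture and 350.2 CPM (348.0 to 352.5) in resistant monoculture. Coculture over monoculture was 0.908 (0.893 to 0.922) in sensitive and 1.16 (1.15 to 1.17) in resistant cells. Although small, these ratios lay on opposite sides of 1, so that the lineage with the higher GATA3 level differed between the monocultures and the coculture.

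FOXA1 (ENSG00000129514, chromosome 14 from 38058757 to 38065264, minus strand), the pioneer factor, had 111.8 CPM (109.7 to 114.0) in sensitive monoculture, 92.77 CPM (90.54 to 95.04) in sensitive coculture, 90.96 CPM (89.64 to 92.30) in resistant coculture and 77.08 CPM (76.04 to 78.14) in resistant monoculture. The cocultured populations, with overlapping intervals, lay between the monocultures. Coculture over monoculture was 0.830 (0.804 to 0.855) in sensitive and 1.18, a log2 ratio of 0.24, in resistant cells, and resistant over sensitive was 0.689 (0.673 to 0.706) between the monocultures and 0.981 (0.953 to 1.01) within the coculture.

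SPDEF (ENSG00000124664, chromosome 6 from 34505579 to 34524110, minus strand) was higher in the resistant lineage. Its level was 206.5 CPM (203.6 to 209.4) in sensitive monoculture, 207.7 CPM (204.4 to 211.1) in sensitive coculture, 236.5 CPM (234.4 to 238.7) in resistant coculture and 277.8 CPM (275.8 to 279.8) in resistant monoculture. The sensitive populations did not differ beyond counting error, at a ratio of 1.01 (0.985 to 1.03), while cocultured resistant cells were below monocultured ones at 0.851 (0.842 to 0.861). Of the 7 measured members it alone was lower in cocultured resistant cells as summed, although PGR, at a log2 ratio of 0.05, came to -0.08 with the correction for RNA of the other lineage and to -0.02 with TMM scaling.

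TFAP2A (ENSG00000137203, chromosome 6 from 10393419 to 10419892, minus strand), which encodes AP-2 alpha, spanned more than any other member outside the receptors. Monocultured sensitive cells had 166.1 CPM (163.5 to 168.6), cocultured sensitive cells 114.4 CPM (112.0 to 117.0), cocultured resistant cells 99.64 CPM (98.26 to 101.0) and monocultured resistant cells 73.75 CPM (72.73 to 74.78). No intervals overlapped, and the cocultured populations lay between the monocultures in both lineages. Resistant over sensitive was 0.444 (0.435 to 0.454) between the monocultures and 0.871 (0.848 to 0.894) in the coculture. Coculture over monoculture was 0.689 (0.671 to 0.708) in sensitive and 1.35 (1.32 to 1.38) in resistant cells. With 10% of UMIs assigned to the other lineage, the log2 ratios were -0.51 in place of -0.53 in sensitive cells and 0.40 in place of 0.43 in resistant cells.

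TFAP2C (ENSG00000087510, chromosome 20 from 55204362 to 55214339, plus strand), which encodes AP-2 gamma, had the opposite lineage bias. It was at 30.34 CPM (29.25 to 31.46) in sensitive monoculture, 34.88 CPM (33.52 to 36.28) in sensitive coculture, 56.49 CPM (55.45 to 57.54) in resistant coculture and 47.34 CPM (46.52 to 48.17) in resistant monoculture. Resistant over sensitive was 1.56, a log2 ratio of 0.63, between the monocultures and 1.62 (1.55 to 1.69) within the coculture, and coculture over monoculture was 1.15 (1.09 to 1.21) in sensitive and 1.19 (1.16 to 1.22) in resistant cells. With 10% of UMIs assigned to the other lineage the sensitive log2 ratio dropped from 0.20 to 0.08.

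TFAP2B (ENSG00000008196, chromosome 6 from 50786436 to 50815332, plus strand), the gene of AP-2 beta, was all but absent from the counts, with 1 UMI in resistant monoculture and 0 in the other populations. A count of 0 allows up to 0.0312 CPM in sensitive monoculture, 0.0423 CPM in sensitive coculture and 0.0150 CPM in resistant coculture. Added over the AP-2 genes, the UMIs came to 196.4 CPM in monocultured and 149.3 CPM in cocultured sensitive cells, and to 156.1 CPM in cocultured and 121.1 CPM in monocultured resistant cells. TFAP2A made up 84.6%, 76.6%, 63.8% and 60.9% of these sums in the same order. The sum was thus lower in the resistant than in the sensitive monoculture, with TFAP2C a larger share of it.

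Some members share their locus with other counted genes. ESR1 overlaps SYNE1, GATA3 overlaps GATA3-AS1, FOXA1 overlaps TTC6 and TFAP2A overlaps TFAP2A-AS1, each on the opposite strand, and GATA3 overlaps ENSG00000232638 on its own strand. Cell Ranger by default counts reads of this chemistry in the sense direction only, which keeps partners on the opposite strand apart. The setting used is not given in the sources used here, and strand cannot separate GATA3 from the partner on its own strand.

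Members past a difference of 1.5-fold were set against all genes, as a description, since the members were chosen with earlier results known. The 7 members with at least 50 UMIs were counted beside the genes with as many UMIs over the populations compared. In sensitive cells, coculture over monoculture, 1 of the 7 was at least 1.5-fold higher (PGR), against 5.13% of all genes, and 0 were as much lower, against 5.91%. TFAP2A came closest among the others, at a log2 ratio of -0.53. In resistant cells, 0 of the 7 were higher and 0 lower, against 0.661% and 0.0304% of all genes; of the genes past 1.5-fold 95.6% were higher, and 80.4% with TMM scaling. The median of the 7 log2 ratios there was 0.24, against 0.03 over all genes. With TMM scaling the median over all genes was -0.02. SPDEF and PGR were then at -0.30 and -0.02, and the other members at 0.14 to 0.36.

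Between the monocultures, 2 of the 7 were at least 1.5-fold higher in resistant cells (PGR and TFAP2C), against 6.65% of all genes, and 1 was lower (TFAP2A), against 12.5%. Of all genes past 1.5-fold in this comparison 34.7% were higher in resistant cells, and 48.4% with TMM scaling. PGR sat near the threshold, at a log2 ratio of 0.59 that became 0.57 with every cell weighted alike, 0.58 without cells of a doublet score above 0.25 and 0.40 with 10 CPM added in place of 1 CPM. Within the coculture library, 1 of the 7 was higher in resistant cells (TFAP2C), against 2.04% of all genes, and 1 was lower (PGR), against 4.09%. Neither passed with 10 CPM added, at log2 ratios of 0.57 and -0.57. Each population enters 2 of the 4 comparisons, so the comparisons are not independent of each other.

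**Figure D2:**
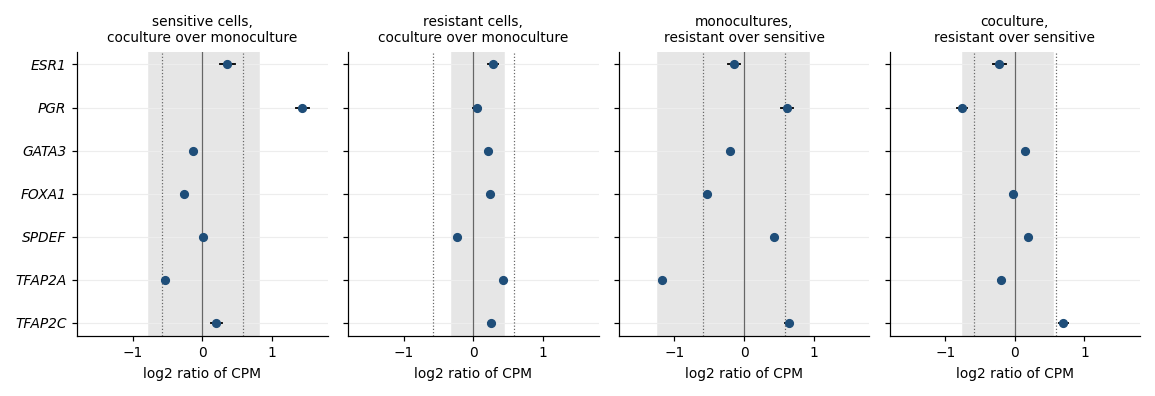
Log2 ratio of CPM (horizontal axes) of 7 members in the 4 comparisons, with counting intervals as lines, dotted lines at 1.5-fold and, in grey, the range of the middle 95% of genes after 1 CPM was added. PGR lies outside the grey range in sensitive cells at a ratio of 2.70, and TFAP2A and FOXA1 lie left of 0 in sensitive and right of 0 in resistant cells.

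The cell cycle was considered next, because 22.2% and 22.5% of cocultured sensitive cells were called S and G2M, against 5.29% and 5.71% in sensitive monoculture. SPDEF was lower in G2M than in G1 in every population. Its G2M level over its G1 level was 0.688 (0.645 to 0.733) in sensitive monoculture, 0.688 (0.659 to 0.719) in sensitive coculture, 0.737 (0.721 to 0.755) in resistant coculture and 0.771 (0.756 to 0.786) in resistant monoculture. In S phase it was also lower than in G1 in 3 populations, at ratios of 0.825 to 0.856, and in sensitive monoculture the ratio was 0.969 (0.916 to 1.02). Within G1 alone, cocultured sensitive cells had 233.5 CPM of SPDEF against 211.7 CPM in monoculture, a ratio of 1.10 (1.07 to 1.13), where cells of all phases together gave 1.01.

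TFAP2A was lower in S and G2M than in G1 in every population. Its ratios over G1 ran from 0.692 (0.643 to 0.743) in S-phase cells of sensitive monoculture to 0.850 (0.820 to 0.882) in G2M cells of resistant monoculture. GATA3 was lower outside G1 as well, at ratios of 0.877 to 0.918, and FOXA1 at ratios of 0.720 to 0.957. TFAP2C stayed nearer to its G1 level, at ratios of 0.897 to 1.05, and ESR1 was at or above its G1 level in every population and phase, at ratios of 1.01 to 1.21. Only in resistant coculture did the ESR1 interval for G2M, 1.11 to 1.31, leave out 1. PGR in G2M ran from 0.640 (0.493 to 0.819) of its G1 level in sensitive monoculture to 1.06 (0.989 to 1.14) in resistant coculture.

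Within a phase, the differences between the sensitive populations were of the same direction for PGR and TFAP2A but not for FOXA1. PGR in cocultured over monocultured sensitive cells was 2.86 (2.66 to 3.09) in G1, 2.66 (2.13 to 3.36) in S and 3.59 (2.78 to 4.69) in G2M. TFAP2A was 0.734 (0.710 to 0.758) in G1, 0.868 (0.798 to 0.945) in S and 0.764 (0.704 to 0.830) in G2M. FOXA1 was 0.844 (0.812 to 0.877) in G1, but 0.960 (0.873 to 1.06) in S and 1.05 (0.954 to 1.16) in G2M. The lower FOXA1 level of cocultured sensitive cells was therefore seen in G1 cells, and with the 3 phases weighted alike its log2 ratio was -0.09 in place of -0.27. In resistant cells the ratios of TFAP2A and FOXA1 were close in the 3 phases: TFAP2A stood at 1.36 in G1, 1.36 in S and 1.32 in G2M, and FOXA1 at 1.18, 1.19 and 1.15. PGR in resistant cells was at 1.01 (0.953 to 1.07) in G1 and 0.992 (0.921 to 1.07) in S, but at 1.14 (1.05 to 1.23) in G2M, where the difference was beyond counting error. ESR1 in sensitive cells was at 1.26 (1.15 to 1.38) in G1, while its interval in G2M, 0.971 to 1.48, held 1.

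**Figure D3:**
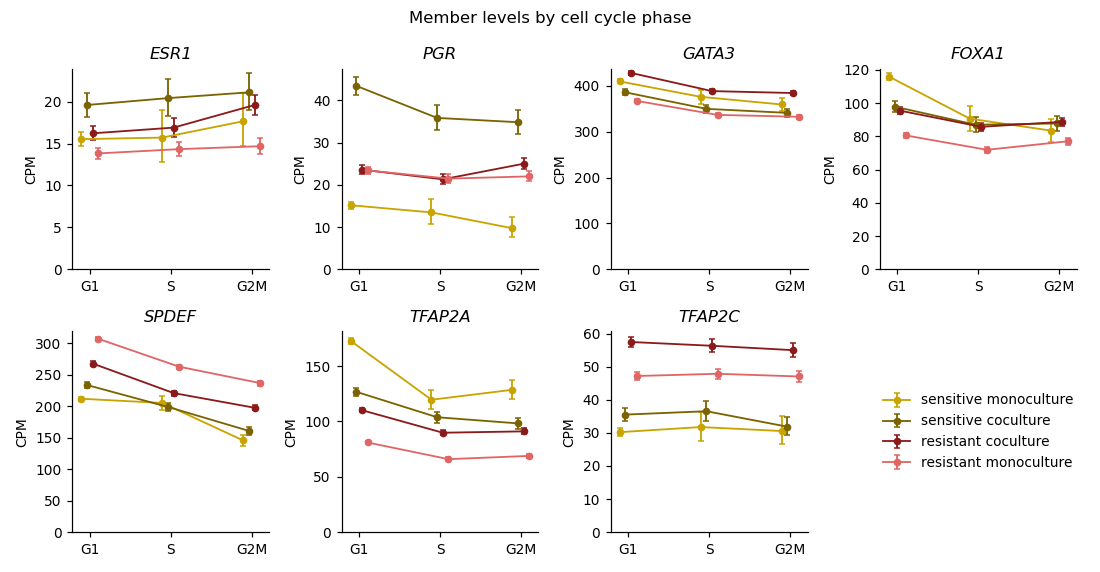
CPM of 7 members (vertical axes, from 0) in cells called G1, S or G2M, 1 line per population, with exact 95% Poisson intervals. SPDEF descends from G1 to G2M in all populations, to 0.688 to 0.771 of its G1 level, and the PGR line of sensitive coculture stays above the others in every phase.

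The authors' annotation also divides the cells into 14 clusters, numbered from 0, which were made from the same cells and genes, so that levels by cluster are a description. Clusters 4, 8 and 12 were 95.3%, 90.9% and 84.3% sensitive monoculture cells. Clusters 3 and 7 were mostly cocultured sensitive cells, at 75.0% and 69.6%, and cluster 7 held cycling cells, 99.4% of them outside G1. Most of the other clusters were made of resistant cells from both cultures.

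PGR and ESR1 were both highest in cluster 3, at 41.40 CPM (39.62 to 43.25) and 20.87 CPM (19.60 to 22.19). PGR was lowest in cluster 12, at 11.63 CPM (8.739 to 15.18), and ESR1 in cluster 8, at 11.05 CPM (9.505 to 12.77). TFAP2A and FOXA1 had their highest levels in cluster 8, at 237.2 CPM (229.8 to 244.7) and 131.5 CPM (126.0 to 137.1). Cluster 8 was the shallowest, with a median of 21335 UMIs per cell, and 21.3% of its UMIs were mitochondrial; the part of either in these levels was not tested. SPDEF ran from 155.7 CPM in cluster 13 to 327.4 CPM in cluster 12. GATA3 ran from 306.8 CPM in cluster 13 to 431.2 CPM in cluster 4, and TFAP2C from 29.37 CPM in cluster 4 to 52.39 CPM in cluster 0. These levels pool populations that differ in level and in their share of a cluster. Levels within a population were read only in clusters with at least 50 of its cells. In resistant coculture GATA3 was highest in cluster 6, at 466.9 CPM (456.3 to 477.7), and cluster 4, with 8 of these cells, was not read. TFAP2C was highest in cluster 9, at 64.40 CPM (53.84 to 76.41). That interval overlapped the one of cluster 0, at 58.83 CPM (57.13 to 60.57).

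Clusters held by both sensitive populations allow culture conditions to be set side by side within a cluster. In cluster 3, PGR was at 46.44 CPM (44.27 to 48.69) in cocultured and 21.86 CPM (18.82 to 25.26) in monocultured sensitive cells, and in cluster 7 at 33.78 CPM (31.45 to 36.24) and 10.02 CPM (8.036 to 12.34). In cluster 4 it was at 21.31 CPM (15.96 to 27.87) and 14.80 CPM (13.83 to 15.81). PGR was thus higher in coculture beyond counting error inside clusters 3 and 7. In cluster 4 PGR was higher in coculture as well, and the intervals nearly met but did not overlap. The cocultured value there rests on 53 UMIs of 84 cells. TFAP2A in cluster 3 was at 117.9 CPM (114.4 to 121.4) in cocultured and 122.9 CPM (115.5 to 130.6) in monocultured cells, with overlapping intervals, and in cluster 4 at 176.9 CPM (160.7 to 194.2) and 160.1 CPM (156.9 to 163.4). Only in cluster 7 was it lower in coculture beyond counting error, at 98.55 CPM (94.54 to 102.7) against 120.0 CPM (112.9 to 127.5). The lower TFAP2A level of cocultured sensitive cells as a whole was not seen inside clusters 3 and 4. Clusters 4, 8 and 12, where TFAP2A was highest, held few of these cells. The clusters were made from the same genes, and the part of cluster shares in the difference was not tested. FOXA1 in cluster 3 was higher in coculture, at 92.79 CPM (89.71 to 95.95) against 75.33 CPM (69.58 to 81.43), the reverse of the difference between the whole populations. In cluster 4 it was at 106.9 CPM (94.47 to 120.6) against 114.6 CPM (111.9 to 117.4), and in cluster 7 at 87.64 CPM (83.86 to 91.55) against 84.37 CPM (78.40 to 90.67), with overlapping intervals in both. ESR1 did not differ beyond counting error in any of the 3 clusters, at 21.11 CPM (19.66 to 22.64) in cocultured and 19.61 CPM (16.73 to 22.84) in monocultured sensitive cells of cluster 3, 16.88 CPM (12.17 to 22.82) and 16.17 CPM (15.16 to 17.23) in cluster 4, and 20.00 CPM (18.21 to 21.91) and 16.96 CPM (14.35 to 19.92) in cluster 7.

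In the resistant lineage the differences of TFAP2A, FOXA1 and SPDEF were present inside cluster 0, the largest. TFAP2A was there at 107.9 CPM (105.6 to 110.2) in cocultured and 79.88 CPM (78.25 to 81.54) in monocultured cells. FOXA1 was at 97.33 CPM (95.14 to 99.56) and 81.51 CPM (79.87 to 83.19), and SPDEF at 261.4 CPM (257.8 to 265.0) and 298.9 CPM (295.8 to 302.1). TFAP2A was also higher in coculture in clusters 1, 2, 5 and 6, at 85.87 to 106.6 CPM against 64.41 to 79.53 CPM. PGR was lower in coculture in cluster 6, at 22.76 CPM (20.46 to 25.25) against 27.91 CPM (25.66 to 30.29). In clusters 0, 1, 2 and 5 the PGR intervals of the cultures overlapped.

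**Figure D4:**
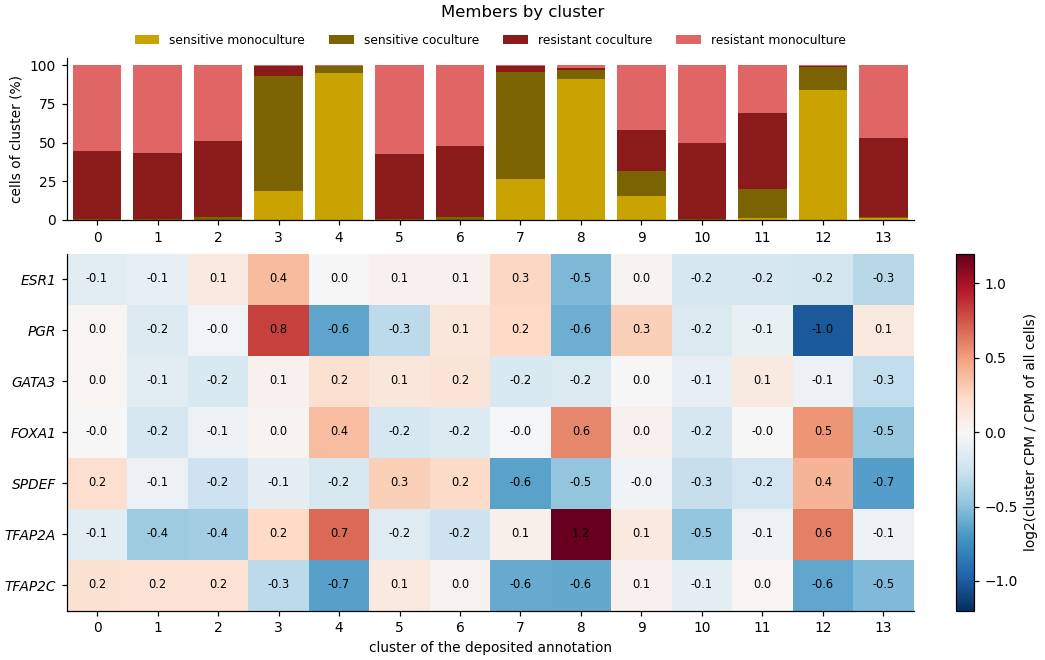
Upper panel: share of each cluster's cells (vertical axis, percent) from the 4 populations. Lower panel: log2 of a cluster's CPM over the CPM of all annotated cells for 7 members, as colour and number; PGR is highest in cluster 3 and TFAP2A in cluster 8, clusters led by cocultured and by monocultured sensitive cells.

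How the receptors were spread over single cells was compared after every cell was thinned to 15000 UMIs, which left out 229 of the sensitive monoculture, 43 of the sensitive coculture, 148 of the resistant coculture and 152 of the resistant monoculture cells. A PGR UMI was then seen in 15.7% (14.5% to 17.1%) of sensitive monoculture, 39.0% (36.9% to 41.2%) of sensitive coculture, 24.0% (23.0% to 25.1%) of resistant coculture and 23.8% (22.8% to 24.8%) of resistant monoculture cells. Without thinning the shares were 23.0%, 59.2%, 37.9% and 39.2%. Among cells with a PGR UMI, the mean was 1.56 UMIs in sensitive coculture and 1.45 in sensitive monoculture, and 4.58% and 3.48% of them held 4 or more. At means of 0.607 and 0.228 PGR UMIs per thinned cell, a higher level shows mostly as more cells with a UMI, so these values do not separate more cells from more PGR per cell. All cells are of 1 line, so no cell type that lacks these genes was at hand to give a background share.

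ESR1 was seen in 20.3% (18.9% to 21.7%) of monocultured and 25.0% (23.1% to 26.9%) of cocultured sensitive cells after thinning, and in 21.6% (20.6% to 22.7%) of cocultured and 18.9% (18.0% to 19.8%) of monocultured resistant cells. Without thinning the shares were 34.2%, 45.3%, 39.2% and 36.6%. In sensitive monoculture ESR1 and PGR had nearly the same mean, 0.234 and 0.228 UMIs per thinned cell, yet they were spread differently. The variance over the mean was 1.07 for ESR1 and 1.74 for PGR there, and PGR stayed the more uneven of the pair in the other populations, at 1.53 to 1.61 against 1.09 to 1.14. Before thinning, the tenth of sensitive monoculture cells with the most PGR held 69.4% of its UMIs, and for ESR1 the same share was 46.8%.

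**Figure D5:**
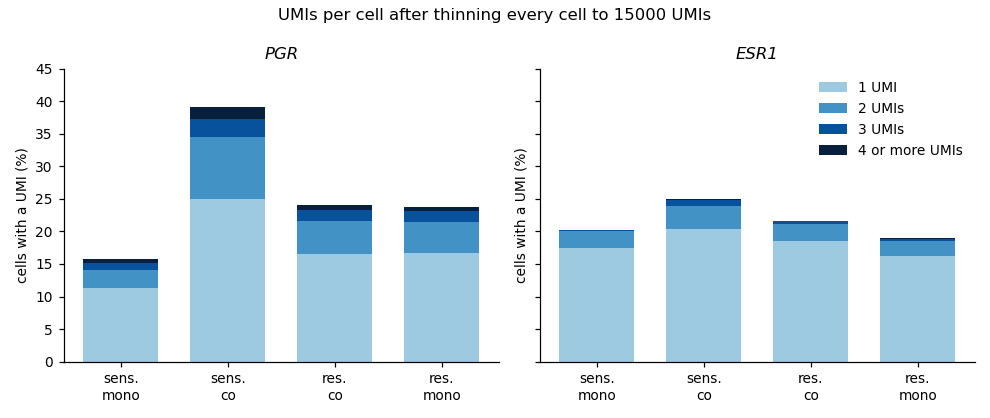
Share of cells (vertical axes, percent) with 1, 2, 3 or at least 4 UMIs of PGR and of ESR1 in the 4 populations after thinning to 15000 UMIs per cell. The PGR bar is tallest in sensitive coculture at 39.0% and shortest in sensitive monoculture at 15.7%, while the ESR1 bars span 18.9% to 25.0%.

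The remaining members were seen in more cells. At 15000 UMIs, GATA3 was seen in 97.1% to 98.3% of cells, SPDEF in 89.9% to 96.3%, FOXA1 in 65.6% to 78.7%, TFAP2A in 64.3% to 88.3% and TFAP2C in 34.8% to 54.5%. The median cell held a UMI of 4 of the 8 members in every population. Correlations of members over single cells were weak, between -0.034 and 0.141 for 21 pairs in each population, and are not read further. For the receptor pair, PGR was seen more often in cells with an ESR1 UMI than in cells without one in 3 populations: 45.5% (41.1% to 50.0%) against 36.8% (34.4% to 39.3%) in sensitive coculture, 27.8% (25.4% to 30.3%) against 23.0% (21.8% to 24.2%) in resistant coculture and 28.2% (25.9% to 30.7%) against 22.7% (21.7% to 23.8%) in resistant monoculture. In sensitive monoculture the shares were 17.0% and 15.4%, with overlapping intervals. Such a difference was not particular to this pair. In resistant coculture TFAP2A was seen in 75.7% of cells with a FOXA1 UMI and 70.0% of cells without one. The correlation there was 0.103 for that pair and 0.054 for ESR1 and PGR.

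Known targets of the receptor were read in the same way. The list was chosen with earlier results of these data known, so its counts are a description. Of 20 receptor target genes on the list, PGR and SPDEF among them, 6 were at least 1.5-fold higher and 1 lower in cocultured than in monocultured sensitive cells, beside 5.13% and 5.91% of all genes, and the median log2 ratio was 0.35, against -0.05 over all genes. TFF1 and TFF3, trefoil factor genes of secretory epithelium, were at 4566 CPM and 376.8 CPM in coculture and 1873 CPM and 93.31 CPM in monoculture. STC2, which encodes the secreted protein stanniocalcin-2, went the other way, at 44.15 CPM and 163.3 CPM. In resistant cells 1 of the 20 was higher in coculture and 0 were lower, beside 0.661% and 0.0304% of all genes, with a median of -0.03 against 0.03. Between the monocultures 6 were higher and 2 lower in resistant cells, beside 6.65% and 12.5% of all genes, and the median was 0.14 against -0.07, with TFF3 at 479.3 CPM, RET at 8.963 CPM against 2.992 CPM, and STC2 at 19.95 CPM and CXCL12 at 1.584 CPM against 6.701 CPM. Within the coculture 2 were higher and 5 lower in resistant cells, beside 2.04% and 4.09% of all genes, with a median of -0.19 against 0.00. AGR2, a protein disulfide isomerase gene, was at 120.6 CPM in resistant and 321.2 CPM in sensitive cells, and CXCL12, a chemokine gene, at 1.999 CPM and 8.350 CPM.

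Targets were also compared between cells of the same population. Over thinned cells with a PGR UMI against cells without one, AGR2 was at 265.3 and 150.6 CPM in resistant monoculture, a ratio of 1.76 (1.71 to 1.81), and at 320.6 and 298.9 CPM in sensitive coculture, a ratio of 1.07 (1.03 to 1.12). TFF3 was at 714.5 and 417.1 CPM in resistant monoculture, a ratio of 1.71 (1.68 to 1.74), and at 465.5 and 346.6 CPM in sensitive coculture, 1.34 (1.30 to 1.39). CXCL12 was at 11.48 and 5.998 CPM in sensitive monoculture, a ratio of 1.91 (1.47 to 2.46), and at 3.566 and 1.786 CPM in resistant coculture. STC2 was lower in cells with a PGR UMI in sensitive monoculture, at a ratio of 0.807 (0.755 to 0.862), and in sensitive coculture, at 0.859 (0.771 to 0.957). In the resistant populations its interval held 1. TFF1 was lower in sensitive coculture, at 0.969 (0.959 to 0.980). It was higher in sensitive monoculture, resistant coculture and resistant monoculture, at 1.09, 1.19 and 1.30. To set targets beside all genes, UMIs were weighted by the share that thinning keeps of each cell. Of 18 measured targets other than PGR, 14 to 17 were then above a log2 ratio of 0 by population, with a median of 0.11 to 0.28, against 48.0% to 60.5% of all genes and a median of -0.01 to 0.02. For cells with and without an ESR1 UMI, 15 to 18 of 19 targets were above 0, with a median of 0.13 to 0.20, against 58.1% to 63.4% of all genes and a median of 0.02 to 0.03.

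Other regulators gave a frame for the members. Of 25 other nuclear receptor genes, 17 to 19 had enough UMIs, and 2 of 17 were higher and 1 lower in cocultured than in monocultured sensitive cells, beside 5.13% and 5.91% of all genes. Between the monocultures 2 of 19 were higher and 4 lower in resistant cells, beside 6.65% and 12.5% of all genes, so that the counts are not read as a result about the list. NR1H3, which encodes the oxysterol receptor LXR alpha, was at 5.799 against 2.005 CPM, and VDR, the vitamin D receptor gene, at 9.974 against 21.44 CPM. In resistant cells, coculture over monoculture, 0 of 19 passed in either direction, beside 0.661% and 0.0304% of all genes, and within the coculture 0 were higher and 1 was lower, beside 2.04% and 4.09%.

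Of 20 measured transcription factor genes of luminal and mammary epithelium outside the 8, 0 were higher and 2 lower in cocultured sensitive cells, beside 5.13% and 5.91% of all genes, and 0 passed in resistant cells, beside 0.661% and 0.0304%. Between the monocultures 1 of the 20 was higher and 4 lower in resistant cells, again beside 6.65% and 12.5% of all genes. TBX3, a T-box factor of mammary development, was at 20.31 against 69.73 CPM and RUNX1 at 13.91 against 33.80 CPM, while CREB3L1, a membrane-bound factor of the secretory pathway, was at 32.15 against 13.26 CPM. Within the coculture 1 was higher and 3 lower, beside 2.04% and 4.09% of all genes, and EHF, an ETS factor like SPDEF, was at 4.588 CPM in resistant and 12.24 CPM in sensitive cells. Of 26 coregulators and partners, 25 or 26 had enough UMIs. In sensitive cells 1 of 25 was higher and 1 lower in coculture, beside 5.13% and 5.91% of all genes. Within the coculture library 0 passed, beside 2.04% and 4.09%, and in resistant cells 0 passed, beside 0.661% and 0.0304%. Between the monocultures 3 of 26 were lower in resistant cells, beside 12.5% of all genes, among them CITED2, the gene of a transcriptional cofactor that works with AP-2 factors, at 10.37 against 33.23 CPM.

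The pattern of each member over the 12 groups of population and phase was last compared with 6775 genes of at least 10 CPM by the Pearson correlation of log2 CPM, as a description over groups that share libraries and, within a population, depth. The closest genes were SLC4A7, WDR43 and PHACTR4 for ESR1 (0.971, 0.968 and 0.966), SCNN1A, SREBF1 and ZP3 for PGR (0.919, 0.919 and 0.913) and ATOX1 and SLC35E1 for GATA3 (0.951 and 0.928). For FOXA1 they were CCDC6, N4BP2L2 and RNF11 (0.981, 0.976 and 0.957), for SPDEF SLC22A18, AQP3 and OXLD1 (0.973, 0.965 and 0.965), for TFAP2A CHMP3, RAP2C and SPOPL (0.988, 0.977 and 0.975) and for TFAP2C COX20, DIDO1 and COX5B (0.984, 0.973 and 0.970). PGR thus had the least close neighbours of the 7. Among the members, FOXA1 and TFAP2A were most alike (0.89), followed by FOXA1 and GATA3 (0.76), while ESR1 and SPDEF (-0.65) and TFAP2A and TFAP2C (-0.64) ran in opposite directions. No neighbours are given for TFAP2B, which had 1 UMI.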

How the data were processed

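The authors counted 10X Genomics 3′ reads with Cell Ranger 3.0.2 on GRCh37. For each of 3 libraries they deposited the counts of UMIs by gene and barcode, with a cell annotation made in Seurat that gives lineage, phase and cluster. Per the methods, cells were limited by genes, UMIs and mitochondrial share, and by a doublet score and transgene UMIs. In the annotation, 2258 of 3329 sensitive and 5507 of 7557 resistant monoculture cells had a UMI of their own transgene, and 55 to 267 cells per population had a scrublet score above 0.25 when scored again here. The deposited UMI totals per cell were used as counts only to check the sums, which differed by at most 6 UMIs. A further 13 annotation columns were not used. Barcodes held 0.523% to 0.591% of UMIs on rows without a symbol, which were left out.

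UMIs of the 3329, 2059, 6292 and 7557 annotated cells were summed by population (70896822 to 270891547 UMIs) and scaled to CPM. Intervals are exact 95% Poisson intervals for levels and exact binomial (Clopper-Pearson) intervals for shares and ratios, and cover counting error only. Genes with at least 50 UMIs over both populations were called at 1.5-fold on the scale of log2(CPM + 1). With 1 library per condition no p-value was computed. A count of 0 was read as allowing 3 UMIs. Python 3.11.15, numpy 2.4.6, pandas 2.3.3, scipy 1.17.1, scanpy 1.11.5 (scrublet) and matplotlib 3.10.9 were used, and edgeR 4.0.16 in R 4.3.3 for TMM factors alone. The code for ratios was tested on simulated data.

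Members and lists were chosen with earlier results of these data known. The text names all 8 members, the 3 genes most like each by Pearson correlation over 12 groups of population and phase, for each other list up to 4 genes per comparison at or past 2-fold, and the highest gene of each marker list. Of the genes this rule names, 2 are not reported here. Receptor targets named in the comparison of cells with and without a UMI, and genes overlapping a member, fall outside this rule and were chosen after their values were seen. Gene positions are of GRCh37 and promoter windows of RefSeq GRCh38.p14. Alternatives were other scalings, added CPM of 0.1 or 10, per-cell means, G1 cells, equal phase weights, transgene, doublet and depth limits, thinning to 5000 UMIs and a correction for RNA of the other lineage.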

Additional observations from a re-analysis of the deposited data

Results flagged for a closer look

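For 3 members the cultures differed in opposite directions in the lineages, each beyond counting error, although the difference between the lineages was not tested, since each condition had 1 library. The log2 ratio of coculture over monoculture in resistant minus sensitive cells was 0.96 for TFAP2A (0.43 and -0.53), 0.50 for FOXA1 (0.24 and -0.27) and 0.35 for GATA3 (0.21 and -0.14). Both lineages of the coculture came from the same library, and sensitive monoculture differed from the other populations in its share of G1 cells (89.0% against 49.7% to 55.3%). Within G1 cells the log2 ratios were 0.44 and -0.44 for TFAP2A, 0.24 and -0.24 for FOXA1 and 0.22 and -0.09 for GATA3. The medians over all genes there were 0.03 and -0.07, so GATA3 in sensitive cells was close to the median. Outside G1 the FOXA1 ratio of sensitive cells was 0.960 (0.873 to 1.06) in S and 1.05 (0.954 to 1.16) in G2M. With equal phase weights its log2 ratio was -0.09, so by phase its opposite direction was seen in G1 cells and not in the others. Inside clusters 3, 4 and 7 the differences of sensitive cells varied. FOXA1 was higher in coculture in cluster 3, at 92.79 against 75.33 CPM, with overlapping intervals in clusters 4 and 7. TFAP2A was lower beyond counting error only in cluster 7, at 98.55 against 120.0 CPM. GATA3 was lower in cluster 3, at 381.0 against 424.9 CPM, with overlapping intervals in clusters 4 and 7.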

How the results depend on the processing

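No paired analysis was possible because each condition had 1 library, and for the same reason no replicate could be left out. Of 364 alternative values of the members' log2 ratios, 260 stayed within the counting error of the reported value and 104 moved beyond it. Where the reported value was beyond counting error from 0, 0 changed sign. SPDEF in sensitive cells (0.01, lowest -0.02) and PGR in resistant cells (0.05, lowest -0.08) were not, and did. Some alternatives could not move a value. The correction for the other lineage leaves the monocultures as they are, and all cocultured cells had a UMI of their own transgene. The number of genes past 1.5-fold in resistant cells was 91 and became 56 with TMM scaling; the cause was not tested. In 8 cases a member changed side of 1.5-fold. With every cell weighted alike, TFAP2A in sensitive cells (-0.60) and FOXA1 between the monocultures (-0.59) passed it and PGR between the monocultures (0.57) did not. PGR between the monocultures also missed it without doublet scores above 0.25 (0.58). With 10 CPM added, PGR (0.40) and TFAP2C (0.51) between the monocultures and PGR (-0.57) and TFAP2C (0.57) in the coculture missed it. Over all alternatives PGR in sensitive cells stayed between 1.01 and 1.52. The low levels of ESR1 and PGR limit what single cells can show, and TFAP2B was at or under the limit of detection.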

Other observations

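Summed over the 8 members, UMIs came to 948.7 CPM in sensitive monoculture, 875.9 CPM in sensitive coculture, 930.1 CPM in resistant coculture and 862.9 CPM in resistant monoculture. Cells with 4 or more PGR UMIs at 15000 UMIs were rare. In sensitive coculture 29 of the 36 lay in cluster 3, which held 1065 of the 2016 thinned cells. In resistant monoculture 39 of the 56 lay in cluster 0, which held 3180 of the 7405 thinned cells.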
